A study of Mus musculus with 8 samples.

Results

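The antioxidant genes of a mouse spleen stromal cell line were read from the deposited RNA-seq table by their symbols, with the pattern covering NRF2 and its partners, the enzymes that make and use glutathione, peroxiredoxins, thioredoxins, superoxide dismutases, catalase, haem and quinone enzymes, the pentose phosphate enzymes and the iron and metal stores. Of 12589 rows in the table, 63 matched. The pattern fits 85 protein-coding symbols of the GENCODE M21 annotation, so that 22 of them had no row and were not analysed here. All cultures were of mSSC-YFP, a spleen stromal line that expresses yellow fluorescent protein, and the design held 4 cultures given the vehicle DMSO and 4 given BMS493, an inhibitor of retinoic acid signalling, for 48 h. As 1 line was used, the cultures do not show how stromal cells of different animals vary.

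The values below are the authors' mean log2 normalized expression over all cultures, with DMSO and BMS493 cultures averaged as 1 set. They describe how much of each transcript these stromal cells held and say nothing of what BMS493 did, because no level of a single culture entered and the authors' own comparison was not used. For the same reason no value has an SD or an n, no test was run, and the depth of each library is not given, since the study's methods state only an average over samples. Raised from the log2 scale, the means summed to 989369 over all rows. For comparison between genes each was divided by the length of the gene's merged exons in kilobases, and this quantity is called the per-kilobase level. A length was found for 11783 rows (93.6%), among them all 63 members.

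The label of spleen stroma was set against marker genes. All 10 fibroblastic markers had a value, from 0.70 for Nt5e to 13.3 for Col1a1 on the log2 scale, whereas none of 5 B lymphocyte and none of 4 erythroid markers did. Of 5 macrophage markers 1 had a value (Cd68, 1.36), and of 4 endothelial markers 2 (Pecam1, 0.47, and Kdr, 2.83). Among 4 epithelial markers Krt18 (0.31) and Krt8 (1.55) were low and Epcam had no row, but Cdh1, which encodes E-cadherin, stood at 8.03. The part of other cells in the levels below was not tested, and in bulk RNA fewer cells of a type and less RNA per cell cannot be told apart.

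NRF2, encoded by Nfe2l2, is a transcription factor that KEAP1 holds in the cytosol and marks for degradation. Electrophiles and oxidants modify KEAP1, NRF2 then builds up in the nucleus, pairs with a small MAF protein and binds antioxidant response elements (AREs) in genes for glutathione synthesis, thioredoxin reduction and NADPH supply. Glutathione is a cysteine-containing tripeptide that transferases attach to electrophiles and that peroxidases use to reduce peroxides.

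Most of the 63 antioxidant genes with a row were above the median of the genes in the table. Per kilobase, all genes means the 11783 rows with a length, and the 22 pattern genes with no row do not enter. The median per-kilobase level of the members was 29.35, against 7.30 for all genes, a ratio of 4.02, and the ratio was 3.78 with the longest and 2.90 with the median transcript as the length. In total 47 of 63 members (74.6%) lay above the median of all genes and 21 (33.3%) in the top 10%. The count in the top 10% was 23 with the longest transcript, 14 with the median transcript and 12 without division by length, and the count above the median was 44, 44 and 41. In the top 1% by merged exons were 3 members, Fth1, Ftl1 and Txn1. At the other end, 6 members lay under the first quartile of 2.68. The members' exons were shorter, with a median of 2613 bases against 4396, and on the log2 scale without division by length the members' median was 5.75 against 4.99. Together they made up 0.757% of the summed expression.

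**Figure D1:**
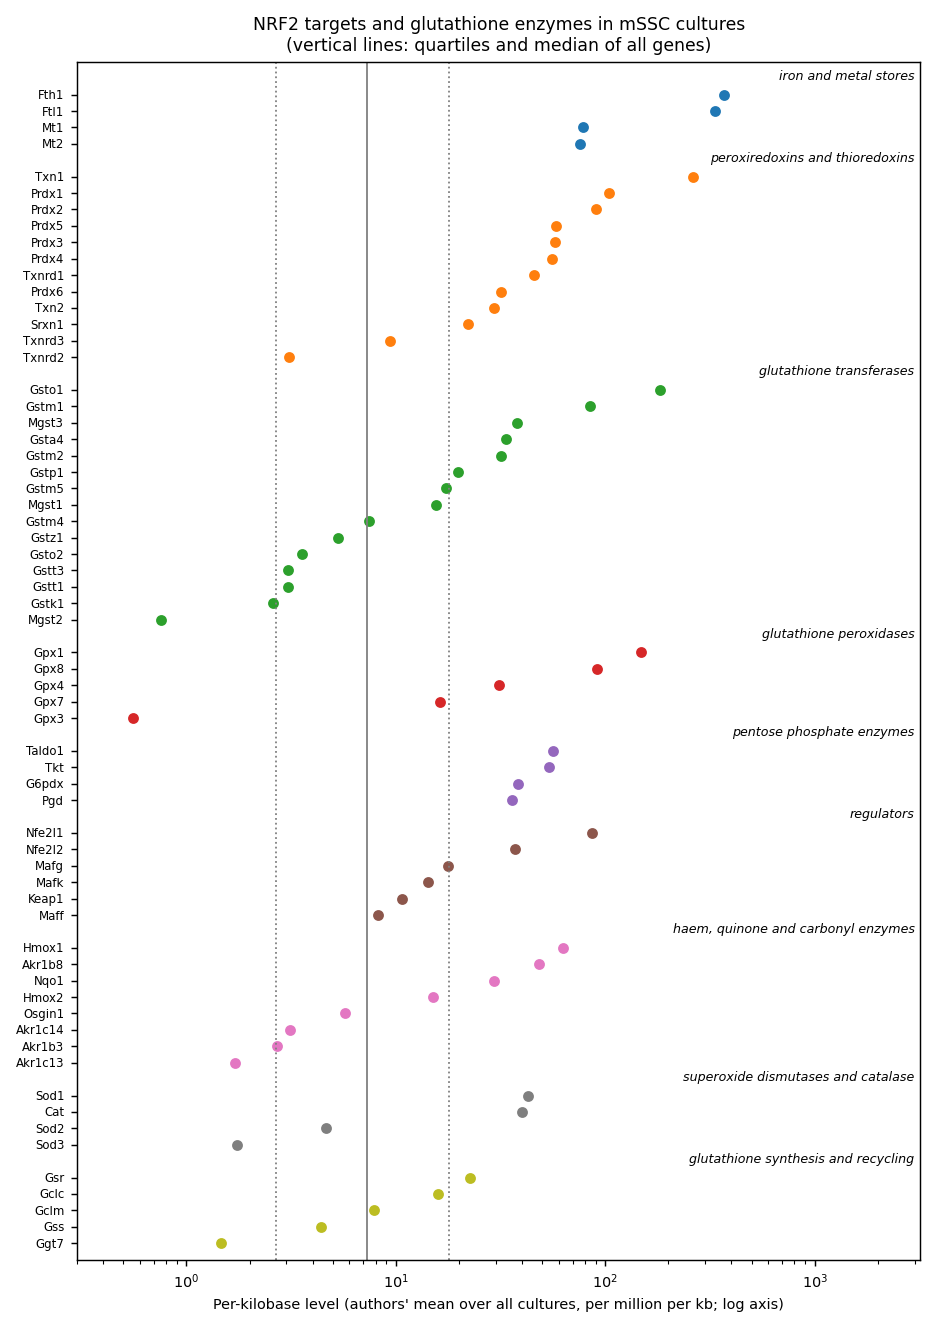
Per-kilobase level of each of the 63 members (log axis, normalized expression per kilobase), grouped by family and ordered by summed level; each point is the authors' mean over all cultures, and the vertical lines mark the quartiles (dotted, 2.68 and 17.95) and the median (solid, 7.30) of all genes. Members run from 0.558 for Gpx3 to 369.7 for Fth1, and all 4 pentose phosphate enzymes and all 4 iron and metal stores lie to the right of the upper quartile.

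Summed over members, the families differed by more than an order of magnitude. The iron and metal stores reached 857 with 4 genes, and the peroxiredoxins and thioredoxins 769.9 with 12 genes. The glutathione transferases followed at 449.5 with 15 genes and the glutathione peroxidases at 289 with 5. By their median member, at 15.49 per kilobase, the transferases ranked 7 of 9 families. Pentose phosphate enzymes summed to 184, regulators to 175 and haem, quinone and carbonyl enzymes to 169, which are close to each other. Lowest were the superoxide dismutases with catalase, at 89.2, and the enzymes of glutathione synthesis and recycling, at 52.1. In most families 1 gene held a large share: the top member's share ran from 30.5% for Taldo1 among the pentose phosphate enzymes to 51.6% for Gpx1 among the glutathione peroxidases. Without the 9 members that share over 10% of their sequence stretches with other genes, the iron and metal stores summed to 448 (Fth1 and Mt1 only) and came after the peroxiredoxins and thioredoxins at 711.5. These 9 were Ftl1, Mt2, Gpx4, Gstp1, Gstt3, Hmox2, Akr1b3, Prdx5 and Sod2. Without division by length the order also turned, with 1897 for the peroxiredoxins and thioredoxins and 1871 for the iron and metal stores. Glutathione synthesis and recycling came last in each of these orders.

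**Figure D2:**
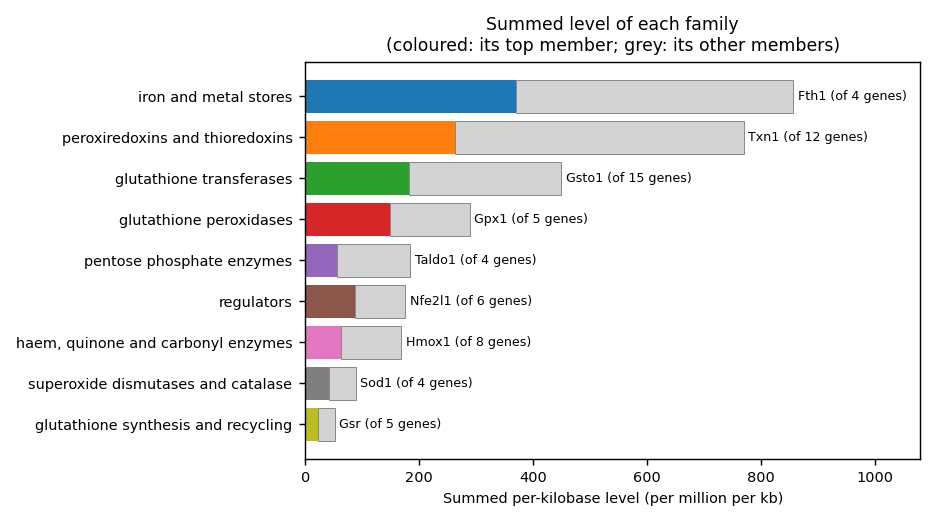
Summed per-kilobase level of each family (bars from 0, normalized expression per kilobase), with the family's top member in colour, the other members in grey and the top member named at the end. The iron and metal stores (857) and the peroxiredoxins and thioredoxins (769.9) are the longest bars, and glutathione synthesis and recycling (52.1) the shortest.

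Among the regulators, the transcripts of both factors were above most genes. Nfe2l2 (chromosome 2, 75675513 to 75704641 of GRCm38, minus strand) had a log2 level of 7.14 and a per-kilobase level of 37.3, above 88.4% of all genes. Its relative Nfe2l1, which encodes NRF1, an endoplasmic reticulum-bound factor known for restoring proteasome genes, was higher still, at 86.9 (chromosome 11, 96817414 to 96829968, minus strand). Keap1 (chromosome 9, 21229730 to 21239361, minus strand) stood at 10.7, so that Nfe2l2 exceeded it 3.49-fold, and 4.12-fold and 4.07-fold with the longest or the median transcript as the length. The small MAF partners were Mafg at 17.8, Mafk at 14.3 and Maff at 8.19. By merged exons or the longest transcript all 6 regulators lay above the median of all genes. With the median transcript Keap1, Mafk and Maff lay below it. Without division by length only Maff did, at a log2 level of 4.41 against 4.99.

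The ARE core, searched as TGACNNNGC on both strands, was found in promoter windows of RefSeq (GRCm38.p6), which span 250 bases before to 50 after a transcript start. Of 56 members with a window, 14 held it in 1 window or more. Counted by gene, the share was 25% of these members and 17.3% of the 8845 table genes with a window. Counted by window, it was 18.2% of the members' 77 windows and 12.4% of all 32851 windows. With the gene's own strand alone the count was 5 of 56 (8.93%), against 9.19% of table genes, so most matches read on the opposite strand. By family the matches fell in 4 of 6 regulators, 3 of 11 peroxiredoxin and thioredoxin genes, 2 of 4 pentose phosphate genes, 2 of 14 transferases, 1 of 4 iron and metal stores, 1 of 3 genes of glutathione synthesis and recycling and 1 of 3 superoxide dismutase and catalase genes. None was found in 5 glutathione peroxidases or in 6 haem, quinone and carbonyl enzymes, Nqo1 among them. Bases outside the windows were not searched, so a window with no match does not mean that the gene lacks the element. Hmox1, Gclc, Gsr, Gsta4, Prdx6, Sod3 and Akr1b3 had no window and were not searched. The 14 stretches are shown because they let the variable bases of the core be compared between genes. Capitals mark the core, and each stretch is written 5′ to 3′ on the strand that carries it. The Txnrd1 window belongs to an alternative start. Of the other windows, those of Pgd, G6pdx and Mgst1 use starts that lie farthest inside the annotated gene. Distances are from the start that each window uses.
Nfe2l2, chr2:75704885-75704913, minus strand: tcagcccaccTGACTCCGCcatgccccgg
Mafg, chr11:120633751-120633779, plus strand: ctcgccgggtTGACCGTGCtcctgcagag
Maff, chr15:79346499-79346527, plus strand: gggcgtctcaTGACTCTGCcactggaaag
Mafk, chr5:139791513-139791541, minus strand: tccccagtacTGACACCGCttccgggatc
Gclm, chr3:122245413-122245441, minus strand: tcgtgagagtTGACGGTGCgcccgggagc
Gstm5, chr3:107895802-107895830, plus strand: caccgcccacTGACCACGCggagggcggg
Mgst1, chr6:138140461-138140489, minus strand: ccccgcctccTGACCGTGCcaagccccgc
Prdx1, chr4:116685456-116685484, minus strand: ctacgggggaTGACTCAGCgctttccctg
Srxn1, chr2:152105542-152105570, minus strand: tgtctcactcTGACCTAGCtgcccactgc
Txnrd1, chr10:82859104-82859132, minus strand: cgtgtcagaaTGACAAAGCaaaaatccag
Sod1, chr16:90220696-90220724, minus strand: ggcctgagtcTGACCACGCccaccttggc
G6pdx, chrX:74428919-74428947, plus strand: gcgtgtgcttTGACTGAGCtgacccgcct
Pgd, chr4:149166061-149166089, minus strand: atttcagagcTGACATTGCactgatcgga
Mt2, chr8:94172529-94172557, plus strand: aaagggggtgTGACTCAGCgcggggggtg

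Of these 14 matches 12 began before the transcript start, and 7 had their centre in the last 100 bases before it. Prdx1 and Mt2 carried the same core, TGACTCAGC, which also holds the letters of an AP-1 site. Mafg shared TGACCGTGC with Mgst1, and Gstm5 shared TGACCACGC with Sod1. A match of letters is not a bound site. The median per-kilobase level was 29.1 over the 14 members with a match and 29.4 over the 42 with a window but no match. Cores outside the windows were not searched, so these medians do not tell whether the core goes with abundance.

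**Figure D3:**
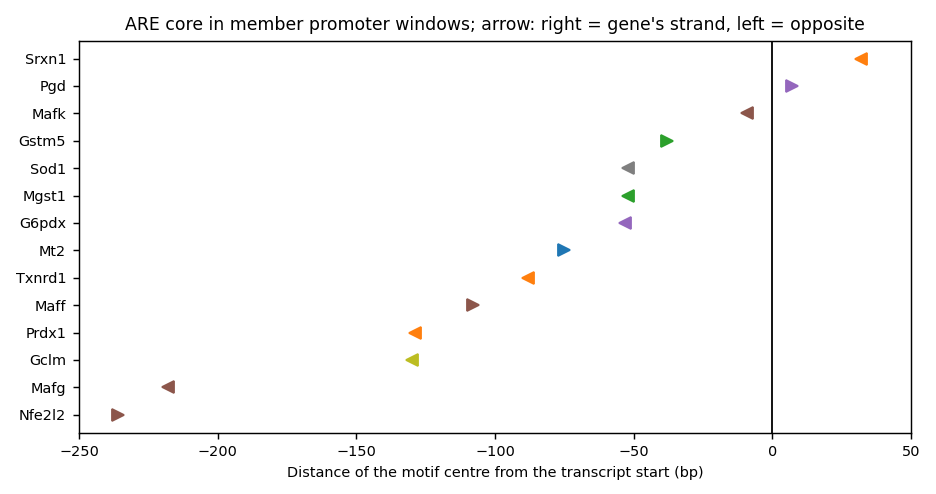
Distance of the centre of each ARE core from the transcript start (x axis, base pairs) for the 14 members with a match, in the family colours of the plot of all members; arrows pointing right are on the gene's strand and arrows pointing left on the opposite strand. The matches of Pgd and Srxn1 lie after the start that their window uses and that of Nfe2l2 is the farthest before its start.

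Transcripts for making and recycling glutathione had the lowest sum of the 9 families and the lowest median per-kilobase level, at 7.86. Without division by length their median of 49.5 was above those of the transferases (27.05) and of the haem, quinone and carbonyl enzymes (27.96). Glutamate-cysteine ligase, the rate-limiting enzyme, joins a catalytic and a modifier subunit, and Gclc, the catalytic one, had a per-kilobase level of 15.9, above 71.9% of genes, and Gclm one of 7.86, above 52.2%. Their ratio was 2.02 by merged exons, 1.97 by the longest and 1.31 by the median transcript, so the catalytic subunit was ahead by a factor that depends on the length used. Gss, the synthetase that adds glycine, stood at 4.37. Gsr, which reduces spent glutathione with NADPH, was the highest of the family at 22.55. Ggt7, a relative of the enzymes that split glutathione outside the cell, stood at 1.46, and Ggt1, Ggt5 and Ggt6 had no row.

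The glutathione transferases were uneven, with a 242.5-fold range from top to lowest member. Gsto1, an omega-class enzyme that also reduces dehydroascorbate, had a per-kilobase level of 182.9 (chromosome 19, 47854970 to 47864790, plus strand) and held 40.7% of the family's sum. Mu-class genes gave another 31.4%, led by Gstm1 at 84.7 and Gstm2 at 31.75. Gstm5 stood at 17.3 and Gstm4 at 7.48. The alpha-class gene Gsta4, whose product is known for conjugating the lipid aldehyde 4-hydroxynonenal, reached 33.7, and the membrane-bound Mgst3 38.1. Gstp1, the pi-class enzyme, stood at 19.8, but 25.1% of its 100-base stretches occur also in Gstp2 or a pseudogene. Reads from such stretches do not map uniquely, and only uniquely mapped reads were counted. Low levels were measured for Gstz1 (5.32), Gsto2 (3.55), Gstt3 (3.06), Gstt1 (3.05), Gstk1 (2.60) and Mgst2 (0.754). Mgst1 was intermediate at 15.49, but without division by length its log2 level of 4.96 was close to that of Gstz1, 4.76. Only 1 of 4 alpha, 4 of 7 mu, 1 of 3 pi and 2 of 4 theta genes of the pattern had a row, with none for Gsta1, Gsta2, Gsta3, Gstm3, Gstm6, Gstm7, Gstp2, Gstp3, Gstt2 and Gstt4.

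Several of the members lie near each other, with levels far apart in some pairs and closer in others. Ggt7 and Gss on chromosome 2 had per-kilobase levels of 1.46 and 4.37, and Akr1c14 and Akr1c13 on chromosome 13 had 3.12 and 1.71. Gsto1 and Gsto2 are 744 bases apart on the same strand, yet the per-kilobase level of Gsto1 was 51.5 times that of Gsto2, and 50.7 and 59.5 times with the other lengths. Of the 4 mu genes with a row, which lie on chromosome 3 in the order Gstm5, Gstm2, Gstm1 and Gstm4, Gstm1 was the highest and Gstm4 the lowest, across gaps of 83016, 25802 and 22435 bases. Gstm7, Gstm6 and Gstm3, which had no row, lie in the first of these gaps. On chromosome 6 Akr1b3 and Akr1b8 are 36641 bases apart on opposite strands and stood at 2.69 and 48.4. The size of their ratio is uncertain, because it was 17.97 by merged exons but 3.25 by the median transcript, and 10.8% of the stretches of Akr1b3 occur in other genes. In contrast, Mt2 and Mt1, 5514 bases apart on chromosome 8, had 75.4 and 78.15, and Gstt3 and Gstt1, 2399 bases apart on chromosome 10, had 3.06 and 3.05. By the median transcript, however, Mt1 was 1.56 times Mt2 and Gstt3 was 3.60 times Gstt1, and 22.4% of the stretches of Mt2 and 10.8% of those of Gstt3 lie in genes that overlap them.

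**Figure D4:**
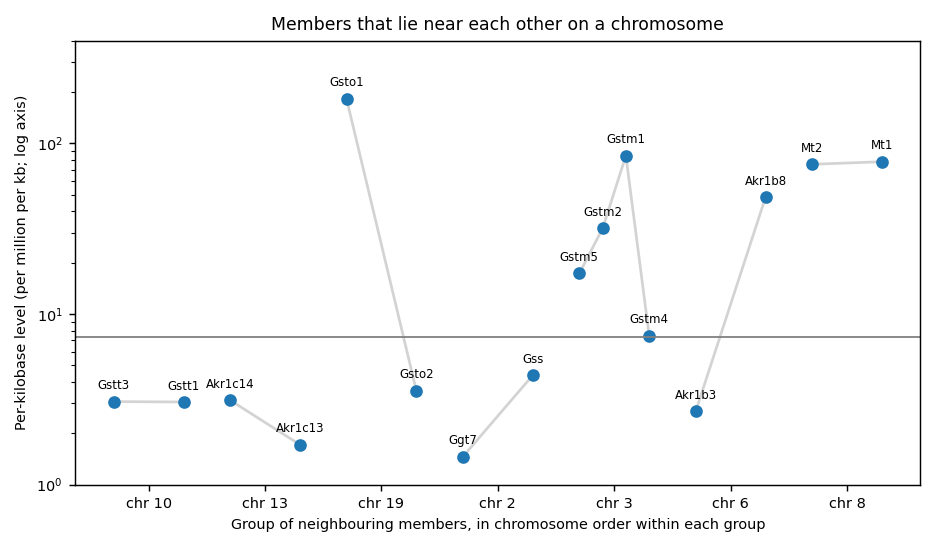
Per-kilobase level (log axis, normalized expression per kilobase) of members that lie under 200000 bases from each other, joined in chromosome order; the horizontal line is the median of all genes (7.30). Gsto1 and Gsto2 are the widest apart of the joined pairs and Mt2 with Mt1 and Gstt3 with Gstt1 the closest.

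The glutathione peroxidases ranged from very high to barely present. Gpx1, which reduces soluble hydroperoxides, had a per-kilobase level of 148.8 (chromosome 9, 108338903 to 108340343, plus strand) and Gpx8, a peroxidase of the endoplasmic reticulum, 91.7. Gpx4, which reduces lipid peroxides within membranes and so holds off ferroptosis, stood at 31.2, with 25.2% of its stretches found also in 2 pseudogenes. Gpx7, the other endoplasmic reticulum enzyme, was at 16.3. Gpx3, the secreted peroxidase, was the lowest of all members at 0.558, with a log2 level of 0.02. The gap between Gpx1 and Gpx3 was 266.6-fold, and 315.1-fold and 208.3-fold with the longest and the median transcript. Gpx2, Gpx5 and Gpx6 had no row.

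Among the 11783 rows matched to the annotation, 9 genes had an annotated selenocysteine codon. Of these, 6 were members: Gpx1, Gpx3, Gpx4 and the 3 thioredoxin reductases. Rows under a symbol that the annotation does not hold were not counted. Selenocysteine is read from TGA, normally a stop codon. The stretches around it are shown with TGA in capitals, as transcripts of GENCODE M21 give them, because they separate both families: in each reductase a cysteine codon, tgc, comes right before TGA, and 1 codon later the reading frame ends, whereas in the peroxidases the frame goes on.
Gpx1, codon at chr9:108339451-108339453, plus strand: aatgtcgcgtctctcTGAggcacc
Gpx3, codon at chr11:54907256-54907258, plus strand: aacgtagccagctacTGAggtctg
Gpx4, codon at chr10:80054737-80054739, plus strand: aacgtggcctcgcaaTGAggcaaa
Txnrd1, codon at chr10:82896037-82896039, plus strand: ctccagtctggctgcTGAggttaa
Txnrd2, codon at chr16:18477772-18477774, plus strand: actgtgactggttgcTGAggctaa
Txnrd3, codon at chr6:89674789-89674791, plus strand: actcagaaaggctgcTGAggctag

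The selenocysteine genes were not alike in level. Gpx1, Txnrd1 and Gpx4 had per-kilobase levels of 148.8, 45.6 and 31.2, and Gpx4, the lowest of these, was above 85.8% of genes. Txnrd3, an isoform known from testis, stood at 9.40, Txnrd2 at 3.08 and Gpx3 at 0.558.

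The thioredoxin system reduces protein disulfides and recharges peroxiredoxins, and its cytosolic thioredoxin was exceeded by both ferritins alone among the members when levels were divided by merged exons. Txn1 (chromosome 4, 57943373 to 57956411, minus strand) had a per-kilobase level of 263, and its mitochondrial relative Txn2 one of 29.35. Txn1 exceeded Txnrd1 5.77-fold per kilobase, but without division by length the ratio was 0.855. All 6 peroxiredoxins were well above the median of all genes: Prdx1 at 103.8, Prdx2 at 90.1, Prdx5 at 58.5, the mitochondrial Prdx3 at 57.6, the endoplasmic reticulum form Prdx4 at 55.4 and Prdx6 at 31.9. Prdx5 overlaps Trmt112 in 12.3% of its stretches. Srxn1, the sulfiredoxin that repairs overoxidized peroxiredoxins, stood at 22.2. The cytosolic reductase Txnrd1 had 45.6, 14.8 times the mitochondrial Txnrd2.

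Cytosolic and mitochondrial forms were compared for thioredoxin, thioredoxin reductase, peroxiredoxin and superoxide dismutase. Other enzymes with both forms, such as Idh1 (62.8) and the mitochondrial Idh2 (77.75) outside the members, were not compared under the other lengths. Txnrd1 exceeded Txnrd2 by 8.29 to 18.9 times under the 3 lengths. Prdx1 exceeded Prdx3 by 1.80 to 8.45 times and Prdx2 exceeded it by 1.56 to 4.40 times. Txn1 over Txn2 was 8.96 by merged exons but 1.44 by the median transcript, and Sod1 over Sod2 was 9.22 and 1.15, so for thioredoxin and superoxide dismutase the size of the lead rests on the length chosen. The direction was the same under the 3 lengths for each of these pairs.

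**Figure D5:**
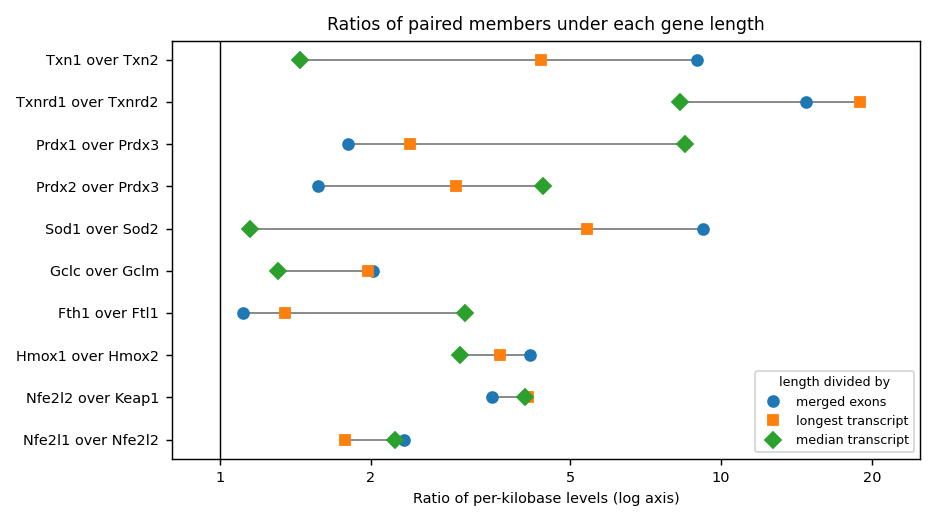
Ratio of per-kilobase levels (log axis) for 10 pairs of members, with the level divided by merged exons (circles), the longest transcript (squares) or the median transcript (diamonds); grey lines span the 3 values. Every ratio is above 1, and the spread is narrow for Nfe2l2 over Keap1 (3.49 to 4.12) and wide for Sod1 over Sod2 (1.15 to 9.22).

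Superoxide dismutases turn superoxide into hydrogen peroxide, and catalase removes it. Sod1, the copper and zinc enzyme, had a per-kilobase level of 42.6 and Cat 40.2. Sod2, the manganese enzyme, stood at 4.63, but the annotation merges its exons to 10008 bases, while its longest transcript has 5861, and 12.8% of its stretches occur in other genes. The extracellular Sod3 was low by any length, at 1.74, which is 24.6 times under Sod1 with merged exons or with the longest transcript.

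Among haem, quinone and carbonyl enzymes the inducible Hmox1, which opens the haem ring, led with a per-kilobase level of 62.5 (chromosome 8, 75093621 to 75100589, plus strand). It exceeded the constitutive Hmox2, at 15.04, by 4.16 times, and by 3.62 and 3.00 times with the other lengths. Hmox2 overlaps Cdip1 and shares 32.1% of its stretches with other genes. Nqo1, the quinone reductase used as a standard NRF2 target, was at 29.5 (chromosome 8, 107388225 to 107403206, minus strand), close to the members' median. The aldo-keto reductase Akr1b8 reached 48.4. Osgin1 (5.73), Akr1c14 (3.12), Akr1b3 (2.69) and Akr1c13 (1.71) were below the median of all genes, and Akr1c6, Akr1c12, Akr1c18, Akr1c19, Akr1c20 and Akr1c21 had no row.

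The pentose phosphate pathway supplies the NADPH that glutathione and thioredoxin reductases consume. By merged exons its 4 enzymes were the most even of the 9 families, with per-kilobase levels of 56.2 for Taldo1, 53.9 for Tkt, 38.1 for G6pdx and 36.04 for Pgd, a 1.56-fold range. Pgd, the lowest, was above 88% of genes. With the longest transcript as the length Tkt, not Taldo1, was the highest.

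Ferritin, which stores iron in a shell of heavy and light chains, gave the 2 highest per-kilobase levels of all members. Fth1 (chromosome 19, 9980598 to 9985098, plus strand) had 369.7 and Ftl1 (chromosome 7, 45457944 to 45459884, minus strand) 333.7, and they stayed first and second under all 3 lengths. Without division by length Fth1 was still first, but Nfe2l1 (472.9) was above Ftl1 (447.2). Of the 100-base stretches of Ftl1, 44.7% occur in other genes, among them Ftl1-ps1 and Ftl2-ps, against 0.21% for Fth1. The metallothioneins, small cysteine-rich proteins that bind zinc and copper, were also high per kilobase. Mt1 stood at 78.15 and Mt2 at 75.4. Without division by length Mt1 had a log2 level of 6.61, above 81.05% of all rows, and Mt2 one of 5.47, above 59.58%. Their genes are induced through metal response elements, searched here as TGCACNC or TGCGCNC on both strands. The windows held 3 matches for Mt1 and 4 for Mt2. As many were found in 3.88% and 1.01% of the 8845 table genes, whereas at least 1 match was found in 41.4% of them and in 18 of 56 members (32.1%). The 250 bases before the start that each window uses are shown with the matches, on either strand, in capitals. They hold 1 match for Mt1 and 3 for Mt2, because the other matches lie after that start. Whether these are the main starts in the cultures was not tested. The ARE core of Mt2 given above lies between its second and last capitals.
Mt1, chr8:94178839-94179088, plus strand: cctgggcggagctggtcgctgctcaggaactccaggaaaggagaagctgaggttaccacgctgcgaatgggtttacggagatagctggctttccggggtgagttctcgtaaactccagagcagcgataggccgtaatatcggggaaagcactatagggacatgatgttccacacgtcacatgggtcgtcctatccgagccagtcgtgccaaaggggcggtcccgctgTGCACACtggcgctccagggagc
Mt2, chr8:94172368-94172617, plus strand: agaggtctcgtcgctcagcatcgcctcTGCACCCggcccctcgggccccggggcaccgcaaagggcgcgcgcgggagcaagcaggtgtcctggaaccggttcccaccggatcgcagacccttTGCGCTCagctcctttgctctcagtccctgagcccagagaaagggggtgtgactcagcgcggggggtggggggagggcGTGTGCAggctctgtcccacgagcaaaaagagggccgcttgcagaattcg

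A list of 40 other genes of the pathway, all with a value, had a median per-kilobase level of 11.3, below that of the members and above that of all genes. In it 25 genes lay above the median of all genes and 7 in the top 10%. Sqstm1, the autophagy receptor that competes for KEAP1, was the highest at 164.9, followed by the epoxide hydrolase Ephx1 at 138.9 and Slc3a2 at 99.7. The NADPH-producing Idh2, Idh1 and Me1 stood at 77.75, 62.8 and 33.2. By contrast Slc7a11, the cystine importer that pairs with Slc3a2, had 1.48, and Ggct, a gamma-glutamylcyclotransferase of glutathione turnover, was lowest at 0.501. Without division by length Slc7a11 had a log2 level of 4.36 and Ggct one of 1.96, against a median of 4.99 over all rows. Only merged exons were used as the length for this list. Bach1, the repressor that competes with NRF2 for AREs, stood at 10.54 and Cul3, the ubiquitin ligase scaffold that KEAP1 uses, at 28.5.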

How the data were processed

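The authors prepared stranded mRNA libraries, aligned reads to mm10 with STAR (2.3.0e in the submitters' processing notes), took the uniquely mapped ones into counts per Ensembl gene (Rsubread), and applied TMM scaling. Whether the counting used strand is not given in the sources used here. Their deposited table has 1 mean log2 value per gene over all cultures, written with decimal commas, which were converted. Its other 4 columns hold the authors' comparison of BMS493 with DMSO (fold change, t, p-value, adjusted p-value). These columns were not used, and the test planned for values of single cultures was not run. Members, lists and families were chosen with earlier results of these data known.

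Symbols were matched to GENCODE M21 (GRCm38, the assembly of mm10), and 2 rows that share a symbol were left out of comparisons per length. Per-kilobase levels are 2 to the power of the mean, divided by merged exon length. A mean of log values lies below the log of the mean. Each member's level is given, led by the highest of its family, and genes of the pattern with no row are named. Stretches of 100 bases of members' transcripts were searched on both strands in all M21 transcripts, by exact match. Promoter windows came from RefSeq on GRCm38.p6, with 1 to several starts per gene. The metal response motif and the shared stretches were added after the data were seen. Motif search and exon merging were tested on simulated data. Python 3.11.15, numpy 2.4.6, pandas 2.3.3 and matplotlib 3.10.9 were used.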

Additional observations from a re-analysis of the deposited data

How the results depend on the processing

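No paired analysis was possible because the values used are 1 mean per gene over all cultures. Fits that omit a culture, other pseudocounts and filters on single libraries were therefore not run. Without counts or values of single cultures, no precision can be given for low genes such as Gpx3. The members' median per-kilobase level of 29.35 became 37.4 with the longest transcript, 63.9 with the median transcript and 29.43 without members sharing over 10% of their stretches, a setting chosen after seeing the data. The median of all genes moved too, and the members' median exceeded it 4.02-fold, 3.78-fold and 2.90-fold by merged exons, longest and median transcript. The members' median percentile on the log2 scale was 65.4 among all rows, 63.4 among genes at a log2 level of at least 1, and 84.75 per kilobase. Of 9 families, 1 held its place in the order by sum when levels were not divided by length, 5 when families were ordered by their median member, and 7 without the members that share stretches. All 9 did with the longest transcript or a log2 level of at least 1. The top member's median share of its family was 43.1%, and 46.98% without division by length, with the same top member in 7 of 9 families. The ARE core was found in 14 members, in 30 as TGANNNNGC (53.6%, against 48.1% of table genes) and in 5 on the gene's own strand.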
